A study of Mus musculus with 8 samples.

Results

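Retinoic acid, the active derivative of vitamin A, is made inside cells by a short chain of reactions. Retinol is first oxidized to retinaldehyde by retinol dehydrogenases such as Rdh10, a step that the retinaldehyde reductase Dhrs3 runs in reverse, and retinaldehyde is then oxidized irreversibly to retinoic acid by the Aldh1a enzymes. The product is carried by the Crabp proteins, is degraded by Cyp26 enzymes and acts through nuclear receptors such as Rarb. Rarb, Cyp26 genes and Dhrs3 are also known to be induced by retinoic acid in many cell types, and stromal cells of gut-draining lymph nodes are a known source of it for lymphocytes.

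The transcripts of 9 genes of this pathway were followed: Rdh10, Dhrs3, Aldh1a1, Aldh1a2, Aldh1a3, Crabp1, Crabp2, Cyp26b1 and Rarb. They were taken by symbol from a count table of 55367 genes. Aldh1a3 was selected on its rise with both treatments in these same libraries, so its level is described here without a test. The 9 genes were also chosen with earlier results of these data known, so tests of the others are not independent of that choice. Of the 9 genes, 5 reached at least 10 counts in at least 3 libraries (Rdh10, Dhrs3, Aldh1a1, Aldh1a3 and Cyp26b1) and entered the fit of 12137 genes in all. The other 4 are given by their counts.

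Poly(A) RNA came from 1 fibroblastic reticular cell (FRC) line, made from lymph nodes of p53ER/ER C57BL/6 mice, in 4 conditions with 2 libraries each and 8 in all. For 4 days the cells were kept in RPMI that B16.F10 melanoma cells had conditioned (TCM), in RPMI that FRCs themselves had conditioned (CCM, the control for TCM), in RPMI plus 15 mmol/L lactic acid (LA), or in RPMI plus the same amount of water (vehicle, the control for LA). By the paper's methods, all of these media also held fetal bovine serum and antibiotics, and they were refreshed during the treatment. FRCs are the dominant stromal cells of lymph nodes, and all 4 groups come from the same line, so that no group stands for another animal or line. In bulk RNA, fewer cells that transcribe a gene and less RNA of it per cell cannot be told apart. The study calls the replicates biological, and the labels do not say whether they were separate cultures. P values measure only the spread between these libraries, part of which may be technical. The 4 groups share the estimate of this spread, so P values for LA over vehicle also hold that between the TCM libraries. The 2 TCM libraries lay furthest apart, with a chi-square per degree of freedom of 19.2. It was 6.98 for LA, 4.64 for vehicle and 3.14 for CCM.

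Total counts per library ranged from 8232889 to 14107964, both extremes being LA libraries (1 and 2), and 3 counts, taken as the floor of detection, equaled 0.212 to 0.355 CPM (counts scaled to library size with TMM factors). Floors and intervals of counts cover counting error only. Of 9 FRC markers 7 were tested, with Pdpn at group means of 125.9 to 185.9 CPM and Vcam1 at 141.5 to 206.7 CPM, whereas Thy1 and Icam1 had at most 16 and 8 counts in a library. The summed level of the FRC markers was 13460 to 18080 CPM, nearly all of it Col1a1, whereas Col1a2 had group means of 6.51 to 13.96 CPM. Of 9 leukocyte markers, 6 (including Ptprc, which encodes CD45) had 0 counts in all libraries, and the list summed to 9.70 to 22.9 CPM, nearly all of it Lyz2. Of 8 endothelial markers Prox1 and Ccl21a had 0 counts, and the list summed to 2.74 to 7.40 CPM. Of 8 melanoma markers Tyr had 0 counts everywhere, and the list summed to 1.82 to 3.04 CPM with CCM, 2.40 to 2.64 CPM with TCM and up to 3.67 CPM with LA. Of these markers Tyrp1 (at most 6 counts in a library) and Dct, Sox10 and Slc45a2 (at most 1 count each) were above 0 with TCM alone.

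For Aldh1a3, Crabp2 and Rdh10 no promoter window was available. Promoter sequence was available from RefSeq (GRCm38.p6) for the other 6 of the 9 genes, as 9 start-site windows. They were searched on both strands for the half-site of retinoic acid receptors, NGNTCA with A or G at the first and G or T at the third letter, and for direct repeats of it with 1, 2 or 5 bases between the copies (DR1, DR2 and DR5), in the 250 bases before each start. The windows of Rarb and Dhrs3 are shown because both genes are known to respond to retinoic acid and because their transcripts differ widely in level in these cells. Capitals mark a DR5. The Rarb window is chr14:16575477-16575726 on the minus strand and the Dhrs3 window is chr4:144892577-144892826 on the plus strand, each printed 5′ to 3′.
Rarb: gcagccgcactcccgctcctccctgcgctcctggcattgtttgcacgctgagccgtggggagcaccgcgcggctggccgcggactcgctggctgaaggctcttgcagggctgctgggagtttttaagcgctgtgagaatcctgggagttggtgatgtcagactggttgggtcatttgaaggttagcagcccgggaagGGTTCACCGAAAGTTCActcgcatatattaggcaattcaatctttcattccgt
Dhrs3: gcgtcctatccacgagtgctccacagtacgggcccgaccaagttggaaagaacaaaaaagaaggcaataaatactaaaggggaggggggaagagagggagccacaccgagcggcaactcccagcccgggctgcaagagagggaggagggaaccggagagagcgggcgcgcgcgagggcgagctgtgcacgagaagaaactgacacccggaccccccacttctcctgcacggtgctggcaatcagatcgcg

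The Rarb window held 1 DR5, at −53 to −37 from its start site, and 29 of the 32851 windows searched held one (0.0883%). That start lies inside the annotated span of Rarb (chr14:16430839-16819156) and not at its upstream end, whereas the counts are for the whole gene. DR1 was found in 0.164% and DR2 in 0.174% of all windows, and neither was found in the 9 windows of the 6 genes that had any. A half-site alone was found in 38.6% of all windows, 3 times in that of Rarb (2 of these form the DR5) and once in a window of Aldh1a1, on the opposite strand. The Dhrs3 window shown held none of these letters. A match is a description of letters, and nothing on binding was measured.

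Rdh10 (chr1:16105774-16133734, plus strand), the retinol dehydrogenase that makes retinaldehyde, was transcribed at a low level that was highest with vehicle and lowest with TCM. The vehicle libraries had 8.38 and 7.03 CPM, the CCM libraries 5.48 and 6.88, the LA libraries 4.61 and 5.78, and those with TCM 5.06 and 3.71. Neighboring groups in this order overlapped, other than vehicle and CCM, whereas both TCM libraries were below both vehicle libraries. The group means were 7.70 ± 0.953 CPM (SD, n = 2) with vehicle, 6.18 ± 0.990 with CCM, 5.20 ± 0.828 with LA and 4.38 ± 0.953 with TCM.

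Rdh10 fell with TCM against vehicle (log2 FC −0.80, SE 0.236, adjusted P = 0.0353, edgeR quasi-likelihood test with Benjamini-Hochberg adjustment). Against CCM the log2 FC was −0.49 (95% confidence interval −1.01 to 0.04, adjusted P = 0.177), and for LA over vehicle it was −0.54 (−1.03 to −0.05, adjusted P = 0.297). The call against vehicle was lost with DESeq2 (adjusted P = 0.0818), with only the libraries compared in the fit (0.0556), and without vehicle replicate 1 (0.182), vehicle replicate 2 (0.0744) or TCM replicate 2 (0.116).

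Dhrs3 (chr4:144892827-144928209, plus strand), which reduces retinaldehyde back to retinol, differed widely between conditions. The TCM libraries were measured at 83.1 and 77.7 CPM, the LA libraries at 58.3 and 25.9, the vehicle libraries at 31.9 and 22.6, and the CCM libraries at 14.3 and 15.3. Both TCM libraries were above all others, both CCM libraries were below all others, and the LA and vehicle libraries overlapped. The group means were 27.3 ± 6.63 CPM (SD, n = 2) with vehicle, 14.8 ± 0.677 with CCM, 42.1 ± 22.9 with LA and 80.4 ± 3.84 with TCM.

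Dhrs3 rose 5.43-fold with TCM over CCM (log2 FC 2.44, SE 0.306, adjusted P = 0.000270, edgeR). Over vehicle it rose 2.97-fold (log2 FC 1.57, SE 0.291, adjusted P = 0.00367). With 1 TCM library left out the size of the first difference stayed between 2.39 and 2.49 on the log2 scale, and its adjusted P values were 0.0726 without TCM replicate 1 and 0.0551 without TCM replicate 2. The difference from vehicle missed the threshold without vehicle replicate 2 (0.0515), TCM replicate 1 (0.178) or TCM replicate 2 (0.125), and without a filter on low counts (0.134).

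With LA the log2 FC of Dhrs3 over vehicle was 0.60 (95% confidence interval −0.05 to 1.26, adjusted P = 0.395), and 1 library decided it. Without LA replicate 1 the value was −0.07, and without LA replicate 2 it was 1.10 (adjusted P = 0.0335). LA replicate 1 was the shallowest and LA replicate 2 the deepest library of the 8, and the part of depth in this gap was not tested. Dhrs3 stood 1.47 above CCM on the log2 scale with LA (SE 0.312, adjusted P = 0.0759) and 0.87 below vehicle with CCM (log2 FC −0.87, SE 0.321, adjusted P = 0.255).

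The ratio of Dhrs3 to Rdh10, each in CPM per kb of exon, sets the transcript of 1 reducing enzyme against that of 1 oxidizing enzyme. Other retinol and retinaldehyde redox enzymes are left out of it. Among them Dhrs4 fell with TCM over CCM (log2 FC −0.77), and Rdh11 had group means of 53.8 to 71.5 CPM. The ratio came to 23.4 and 29.8 for the TCM libraries, 17.97 and 6.36 for the LA libraries, 5.42 and 4.56 for the vehicle libraries, and 3.72 and 3.16 for the CCM libraries. Both TCM libraries were above all others and both CCM libraries below all others. The LA libraries were both above the vehicle libraries, but 1 of them was nearer to vehicle than to TCM.

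**Figure D1:**
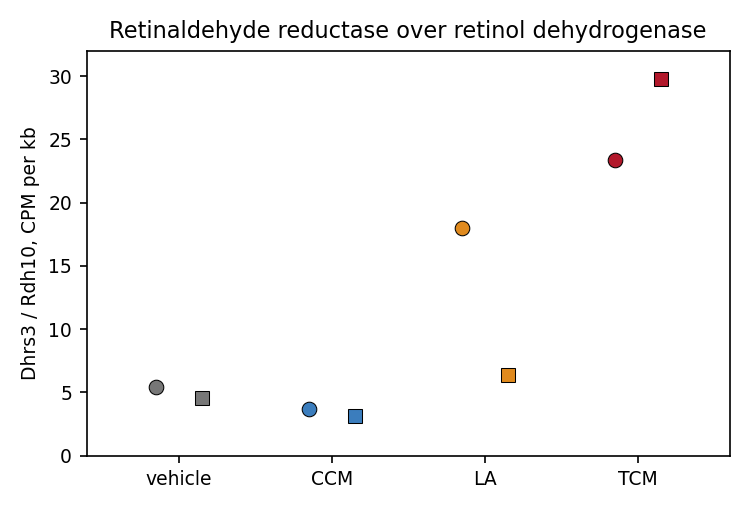
Ratio of Dhrs3 to Rdh10, each in CPM per kb of exon, on a linear axis from 0, for 2 libraries in each of 4 conditions (circle, replicate 1; square, replicate 2). The TCM libraries stand at 23.4 and 29.8, and the 2 LA libraries lie far apart, at 17.97 and 6.36.

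Aldh1a1 (chr19:20492715-20643465, plus strand) encodes a retinaldehyde dehydrogenase and was by far the most abundant transcript of the 9 genes. Its level was 371 and 348 CPM in the TCM libraries, 257 and 212 in the vehicle libraries, 258 and 206 in the LA libraries, and 156 and 160 in the CCM libraries. The CCM libraries were the lowest and the TCM libraries the highest, with no overlap, and the LA and vehicle libraries overlapped. The group means were 234.5 ± 32.5 CPM (SD, n = 2) with vehicle, 158 ± 2.51 with CCM, 232 ± 37.1 with LA and 359.6 ± 16.4 with TCM.

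Aldh1a1 rose 2.28-fold with TCM over CCM (log2 FC 1.19, SE 0.129, adjusted P = 0.000113, edgeR) and 1.53-fold over vehicle (log2 FC 0.62, SE 0.127, adjusted P = 0.00656). The difference from CCM was called under all 18 alternatives tried, and that from vehicle was lost without vehicle replicate 2 (adjusted P = 0.0832) and where a log2 FC beyond 0.68 was asked. With LA the log2 FC over vehicle was −0.02 (95% confidence interval −0.30 to 0.26, adjusted P = 0.979). Between the 2 control media, CCM stood below vehicle (log2 FC −0.57, SE 0.128), which missed the threshold in edgeR (adjusted P = 0.0577) and passed it in DESeq2 (adjusted P = 0.00721). Aldh1a7, a neighboring paralog, shares 151 of the 4934 different 50-base words of Aldh1a1 transcripts (3.06%). These are 7.49% of the words of Aldh1a7, so a small part of the reads could not be assigned to 1 of the 2 genes.

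Aldh1a3 (chr7:66390890-66427517, minus strand), a second retinaldehyde dehydrogenase, was scarce, and its values are those that selected it. Of the 4601 different 50-base words of its transcripts, 53 (1.15%) occur in another gene, 51 of them in Casc4. The vehicle libraries held 12 and 22 counts (1.34 and 2.04 CPM), the CCM libraries 31 and 32 (2.61 and 3.06 CPM), the LA libraries 32 and 99 (3.79 and 6.98 CPM), and the TCM libraries 63 and 67 (6.64 and 7.31 CPM). The vehicle libraries were the lowest, followed by CCM, with the LA and TCM libraries above both controls and overlapping each other. The group means were 1.69 ± 0.491 CPM (SD, n = 2) with vehicle, 2.84 ± 0.314 with CCM, 5.38 ± 2.26 with LA and 6.98 ± 0.476 with TCM.

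As a description, Aldh1a3 was 3.25-fold higher with LA than with vehicle (log2 FC 1.70), 2.46-fold higher with TCM than with CCM (log2 FC 1.30) and 4.05-fold higher with TCM than with vehicle (log2 FC 2.02). The exact Poisson 95% intervals of the 2 LA libraries, 2.59 to 5.34 and 5.68 to 8.50 CPM, did not overlap, and that of LA replicate 1 overlapped those of both CCM libraries, 1.78 to 3.71 and 2.09 to 4.32 CPM. Between the 2 control media, which were the baselines of that choice, the log2 FC of CCM over vehicle was 0.72. The effect of TCM was smaller than that of LA by 0.40 on the log2 scale (log2 difference −0.40), and without LA replicate 2 this turned to 0.16.

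The 2 LA libraries ranked in opposite order for Dhrs3 and Aldh1a3, LA replicate 1 having the higher level of Dhrs3 and LA replicate 2 that of Aldh1a3.

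Aldh1a2 (chr9:71215789-71296243, plus strand), the retinaldehyde dehydrogenase most used in the embryo, had 0 counts in 7 libraries and 1 count in TCM replicate 2, all at or under the floor of 3 counts. Among the 3 Aldh1a genes, per kb of exon, Aldh1a1 made up 96.5% to 99.45% of the summed CPM in the 8 libraries. Aldh1a3 made up 0.554% and 1.02% in the vehicle libraries, 1.76% and 2.00% in the CCM libraries, 1.54% and 3.50% in the LA libraries, and 1.88% and 2.20% in the TCM libraries. The vehicle libraries were lowest, and the shares with CCM, LA and TCM overlapped. The summed level of the 3 genes was 52.4 and 43.3 CPM per kb for the vehicle libraries, 32.2 and 33.0 for the CCM libraries, 53.2 and 43.2 for the LA libraries, and 76.6 and 72.1 for the TCM libraries, the order of Aldh1a1 itself.

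**Figure D2:**
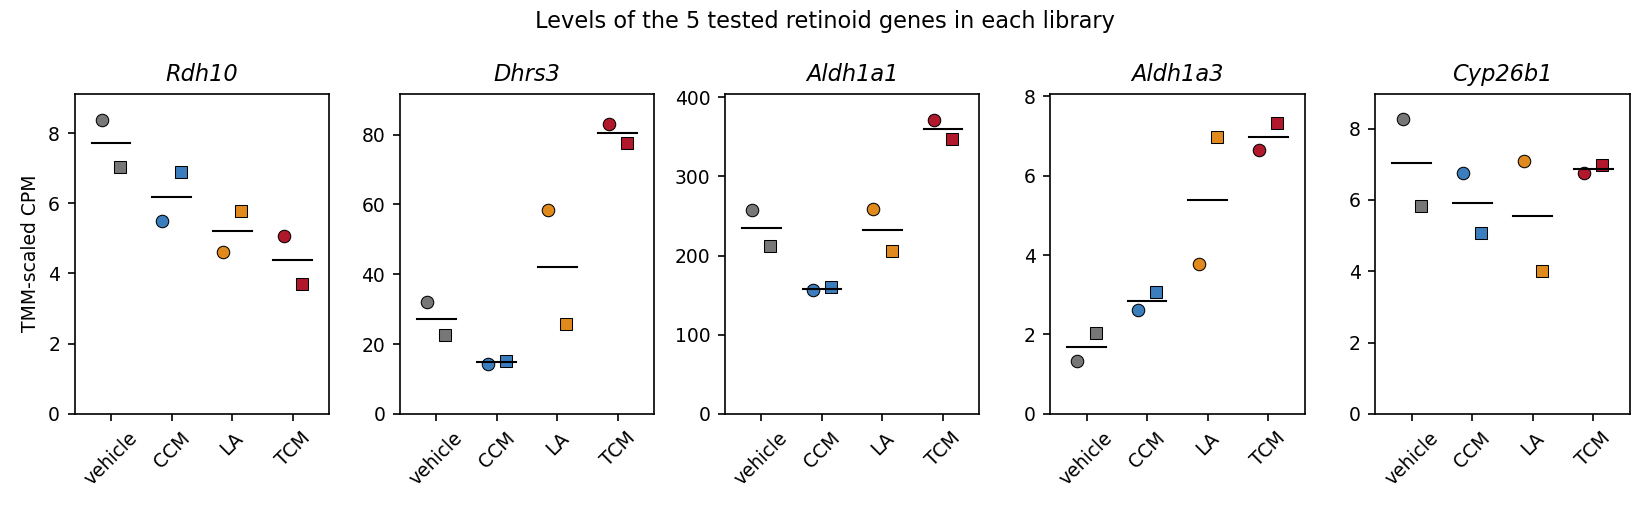
Level in TMM-scaled CPM, on linear axes from 0 with a scale for each gene, of the 5 tested genes in 2 libraries of each condition (circle, replicate 1; square, replicate 2) with the group mean as a bar. Dhrs3 and Aldh1a1 are highest in both TCM libraries and lowest in both CCM libraries, and Aldh1a3 ranges from 1.34 to 7.31 CPM.

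Cyp26b1 (chr6:84571414-84593908, minus strand), the enzyme that degrades retinoic acid, was low in all conditions. The vehicle libraries had 8.27 and 5.83 CPM, the CCM libraries 6.75 and 5.07, the LA libraries 7.10 and 4.02, and the TCM libraries 6.74 and 6.99. All 4 groups overlapped. The log2 FC was 0.21 for TCM over CCM (95% confidence interval −0.41 to 0.83, adjusted P = 0.643) and −0.39 for LA over vehicle (−1.02 to 0.24, adjusted P = 0.622), so that changes of the size seen for Dhrs3 with TCM lie outside the first interval. The other 2 Cyp26 genes were at or under the floor, with 0 counts of Cyp26a1 in all 8 libraries and at most 2 counts of Cyp26c1 in a library.

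The carriers of retinoic acid and its receptor Rarb were too scarce to test. Crabp1 (chr9:54764748-54773110, plus strand), a cytosolic carrier, had 0 and 1 counts in the vehicle libraries, 1 and 1 in those with CCM, 0 and 1 in those with LA, and 2 and 1 in those with TCM. Crabp2 (chr3:87948666-87953376, plus strand), the carrier that hands retinoic acid to its receptors, had 1 and 2 counts in the vehicle libraries, 2 and 4 in those with CCM, 4 and 1 in those with LA, and 1 and 3 in those with TCM. Both genes lay at or near the floor of 3 counts, and no difference was detectable at this depth.

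Rarb (chr14:16430839-16819156, minus strand), whose window carries the DR5 printed above, had 3 and 2 counts in the vehicle libraries, 12 and 3 in those with CCM, 7 and 2 in those with LA, and 6 and 2 in those with TCM. Library 1 had the higher count in each of the 4 conditions, and all 4 groups overlapped. The highest value, 1.01 CPM in CCM replicate 1, had an exact Poisson interval of 0.523 to 1.77 CPM, and that of TCM replicate 1 was 0.232 to 1.38 CPM. No rise with LA or TCM was detectable at this depth. Exons of Rarb overlap those of Top2b on the opposite strand, 34.1% of the 50-base words of Rarb transcripts occur in another gene, and whether counting used the strand is not given in the sources used here, so that even these few counts are uncertain.

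**Figure D3:**
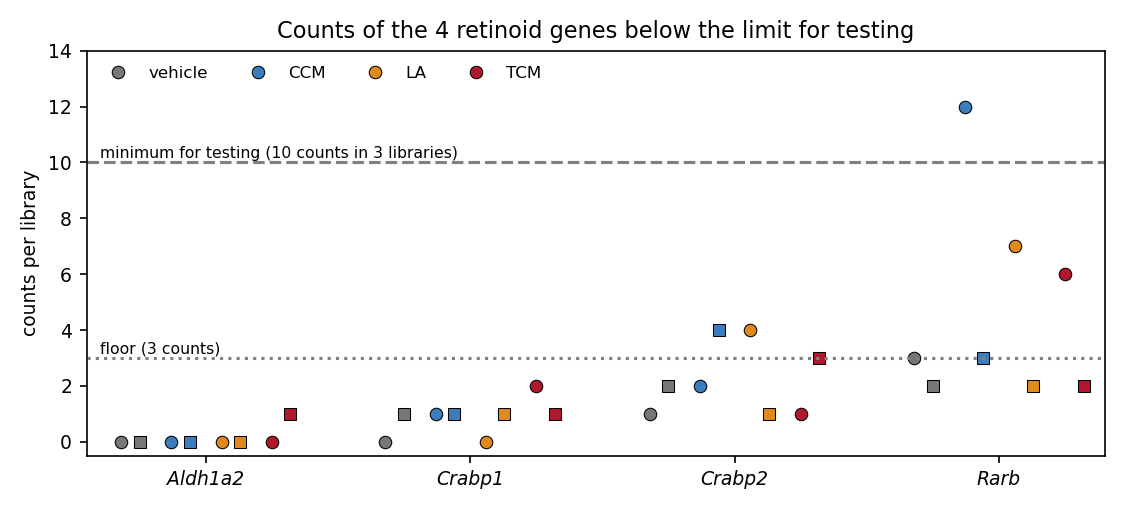
Counts in each library of the 4 genes that were not tested, on a linear axis (circle, replicate 1; square, replicate 2), with the floor of 3 counts and the minimum of 10 counts as lines. Crabp1, Crabp2 and Aldh1a2 have at most 4 counts in a library, and Rarb reaches 12 in CCM replicate 1.

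A change was called where the adjusted P value was under 0.05 and the log2 FC beyond 0.39. With TCM over CCM 2 of the 4 tested genes other than Aldh1a3 were called, Dhrs3 and Aldh1a1, both higher, where 19.1% of all 12137 genes were called. With TCM over vehicle 3 were called, Dhrs3 and Aldh1a1 higher and Rdh10 lower, where 17.5% of all genes were called. The comparisons of TCM with CCM and with vehicle share the TCM libraries. The genes were chosen with earlier results of these data known, which limits these counts and their P values.

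With LA over vehicle 0 of the 4 genes were called, where 2.55% of all genes were called, and with LA over CCM 0 were called, where 0.626% of all genes were called. For CCM over vehicle 0 were called, where 1.30% of all genes were called. In these 3 comparisons DESeq2 called 0, 1 and 1 of them, the called gene being Aldh1a1, and in edgeR 1 (Rdh10), 2 and 2 (Aldh1a1 and Dhrs3) had an unadjusted P value under 0.05. Without TMM factors the median log2 FC of all genes was −0.14 for TCM over CCM and −0.105 for TCM over vehicle, and on that scale the values of Aldh1a1 and Dhrs3 for TCM over CCM were 1.05 and 2.30.

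The effects of TCM (over CCM) and of LA (over vehicle) were compared directly as an interaction. Their controls differ, so each difference also holds that between CCM and vehicle. CCM over vehicle had a log2 FC of −0.57 for Aldh1a1 and −0.87 for Dhrs3, neither called. TCM over vehicle had a log2 FC of 0.62 for Aldh1a1 and 1.57 for Dhrs3. The effect of TCM was larger for Aldh1a1, by 1.20 on the log2 scale (SE 0.180, adjusted P = 0.00154, edgeR), and for Dhrs3, by 1.84 (SE 0.426, adjusted P = 0.0189), 2 of the 4 tested genes, where 10.4% of all genes were called. The value of Dhrs3 lost its call without a filter on low counts (adjusted P = 0.292), and without vehicle replicate 1 (0.0890), CCM replicate 1 (0.0734), CCM replicate 2 (0.0547), TCM replicate 1 (0.267) or TCM replicate 2 (0.198). For Rdh10 the difference was 0.05 (95% confidence interval −0.68 to 0.78, adjusted P = 0.953) and for Cyp26b1 it was 0.60 (−0.28 to 1.48, adjusted P = 0.396), both intervals wide enough to hold a difference of 0.39.

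**Figure D4:**
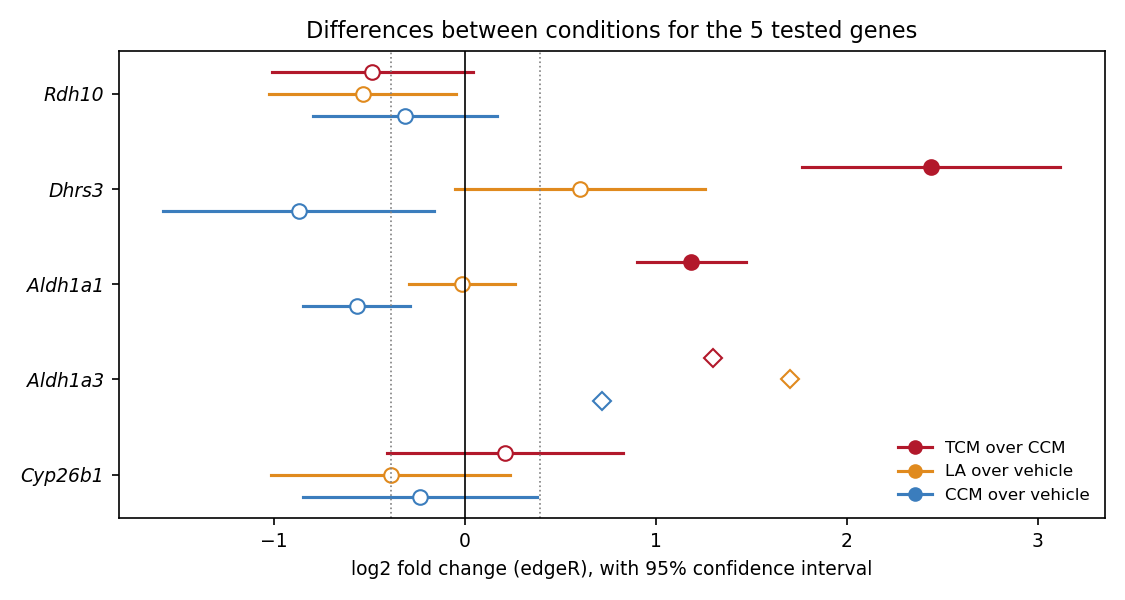
The log2 FC (points) with its 95% confidence interval (lines) of the 5 tested genes for TCM over CCM, LA over vehicle and CCM over vehicle. Filled circles are called, open circles are not, dotted lines mark 0.39 in each direction, and the open diamonds of Aldh1a3 have no interval because its values in these libraries selected the gene. Dhrs3 and Aldh1a1 are called for TCM over CCM, at 2.44 and 1.19.

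The wider pathway was described with 7 lists that hold 102 genes besides Aldh1a3, of which 67 were tested, Rdh10, Dhrs3, Aldh1a1 and Cyp26b1 among them. With TCM over CCM 12 of the 67 were called, 8 higher and 4 lower, which is 17.9% beside 19.1% of all genes, with a median log2 FC of 0.05 beside 0.000322 over all genes tested. The share of called genes was thus near the background. DESeq2 also called 12 with TCM over CCM, and 26 had an unadjusted P value under 0.05 in edgeR. With LA over vehicle 1 of 67 was called in edgeR (1.49% beside 2.55%). DESeq2 called 1 there, and 10 had an unadjusted P value under 0.05 in edgeR. With CCM over vehicle 0 of 67 were called in edgeR, where DESeq2 called 3 and 11 had an unadjusted P value under 0.05.

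Of 6 tested genes for retinol uptake, transport and storage, 1 was called with TCM over CCM (16.7% beside 19.1% of all genes), Scarb1, a lipoprotein receptor that also takes up carotenoids, which rose (log2 FC 0.45, adjusted P = 0.0144, edgeR). Stra6, the retinol importer, had at most 10 counts in a library, and Lrat, which esterifies retinol for storage, had 0 counts in all 8. Of 12 tested retinol and retinaldehyde redox enzymes 2 were called (16.7%), also near the share over all genes. Dhrs3 rose and Dhrs4 fell, the latter with a log2 FC of −0.77 (adjusted P = 0.00130).

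The aldehyde dehydrogenases outside the Aldh1a1 to Aldh1a3 group, most of which act on other aldehydes, had 5 of 14 tested genes called with TCM over CCM (35.7% beside 19.1% of all genes). Aldh1a7 rose by a log2 FC of 1.63 (adjusted P = 2.5e-05), from 28.0 ± 2.80 CPM (SD, n = 2) with CCM to 86.9 ± 11.9 with TCM. With vehicle it stood at 42.3 ± 0.102 CPM, and its log2 FC of CCM over vehicle was −0.59 (adjusted P = 0.0611, edgeR). Aldh1b1, a mitochondrial enzyme with at most 22 counts in a library, rose by 1.78 (adjusted P = 0.0337), Aldh6a1 of valine breakdown by 0.61 (adjusted P = 0.00308) and Aldh9a1 by 0.43 (adjusted P = 0.0220). Aldh3a1 fell by 1.92 on the log2 scale (adjusted P = 0.0117), from 2.91 ± 0.891 CPM with CCM to 0.743 ± 0.588 with TCM. It had at most 52 counts in a library, and its TCM mean was not far above the floor of 0.212 to 0.355 CPM. Its log2 FC for TCM over CCM ranged from −3.09 to −1.30 with a library left out. Aldh3a1 was also the 1 gene of the lists called with LA over vehicle, where it fell by 1.65 (adjusted P = 0.0312), from 5.20 ± 0.548 CPM with vehicle to 1.64 ± 0.0239 with LA.

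Of 3 tested carriers and degrading enzymes of retinoic acid 0 were called for TCM over CCM in edgeR and 0 in DESeq2, and 1 (Por) had an unadjusted P value under 0.05, beside 19.1% of all genes called. Fabp5, a carrier of fatty acids and retinoic acid, was the abundant one, with group means of 134 to 181 CPM. Of 17 tested receptors and coregulators 1 was called (5.88%), a share below that over all genes. It was Rara, the alpha receptor, which fell (log2 FC −0.42, adjusted P = 0.0122), from 65.2 ± 2.66 CPM with CCM to 48.8 ± 3.41 with TCM. Rarg and Rxra were present at 101 to 106 and 91.6 to 110 CPM, and the log2 FC of Rarg was 0.08 (adjusted P = 0.578). So of the 3 receptors of retinoic acid, Rara and Rarg were readily counted in this line, and Rarb was not.

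Among 20 tested genes known to respond to retinoic acid, 4 were called with TCM over CCM (20% beside 19.1% of all genes). Tgm2, a transglutaminase, rose by 2.39 on the log2 scale (SE 0.217, adjusted P = 3.9e-05), from 34.2 ± 2.14 CPM with CCM to 179.9 ± 27.0 with TCM, and Dhrs3 rose as described. Tgm2 stood at 59.9 ± 18.8 CPM with vehicle, and its log2 FC of CCM over vehicle was −0.80 (adjusted P = 0.109, edgeR). Exons of Tgm2, Aldh6a1, Nr2f2 and Aldh2 overlap those of a gene on the opposite strand, so the same limit of the counting applies to them. Rara fell, as did the nuclear receptor Nr2f2 (log2 FC −0.40, adjusted P = 0.00806). With LA over vehicle 0 of the 20 were called in edgeR and 0 in DESeq2, 3 had an unadjusted P value under 0.05, and Tgm2 had a log2 FC of −0.23 (adjusted P = 0.719). The share of called genes was near the background, with 2 higher and 2 lower, and the median log2 FC of the 20 was −0.13.

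Of the called genes of the wider pathway, Dhrs4, Aldh1a7, Aldh6a1 and Tgm2 were called for TCM over CCM under each of the 16 alternatives. Scarb1, Aldh1b1, Aldh3a1, Aldh9a1, Rara and Nr2f2 each lost the call in 2 to 7 alternatives, with highest adjusted P values of 0.146, 0.244, 0.0858, 0.176, 0.124 and 0.0803. For each of these 6, leaving out CCM replicate 1 or CCM replicate 2 was among them. The call of Aldh3a1 with LA was lost when any 1 of the vehicle or LA libraries was left out (highest adjusted P = 0.202).

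**Figure D5:**
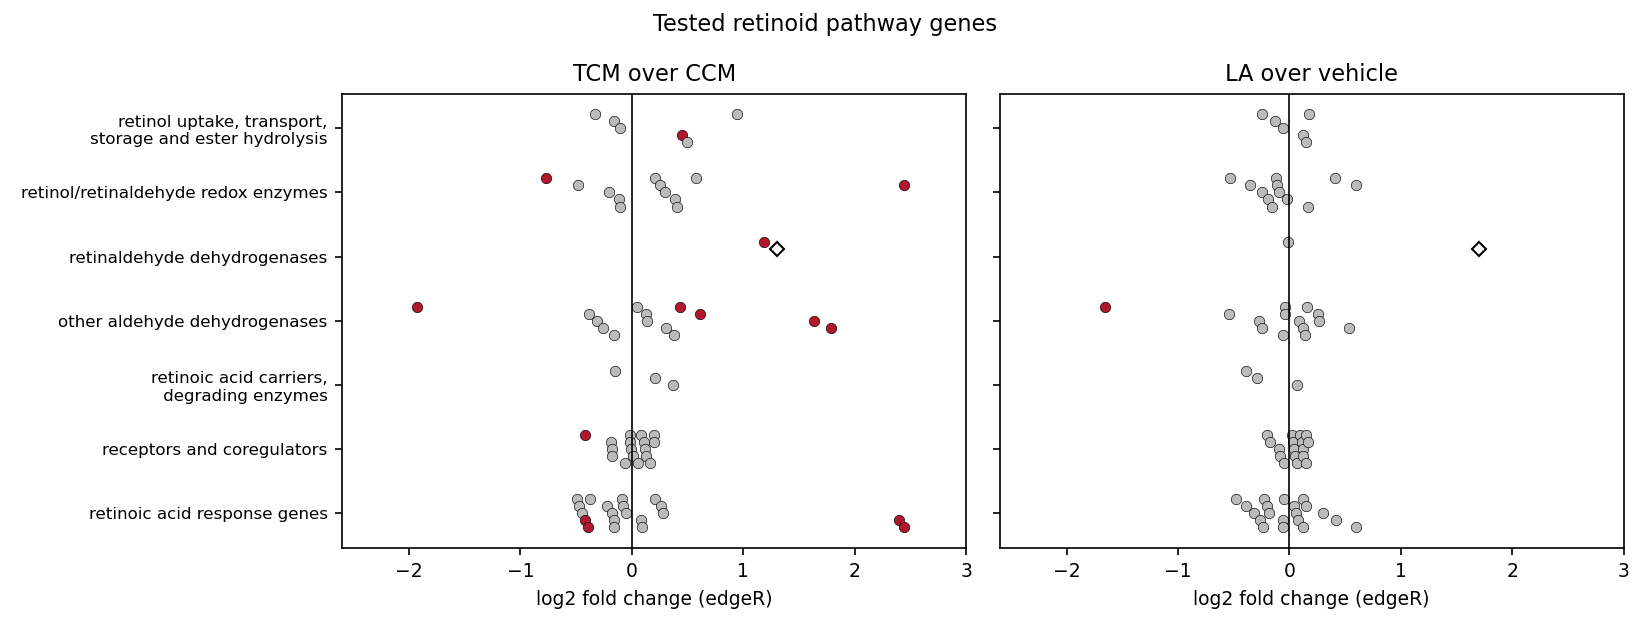
The log2 FC of each tested gene of the 7 pathway lists for TCM over CCM (left) and LA over vehicle (right), 1 point for each gene in each list that holds it, spread vertically within its list only for legibility. Red points are called, gray points are not, and the diamond is Aldh1a3, which was selected on these values. Tgm2 and Dhrs3 lie at 2.39 and 2.44 for TCM, and Aldh3a1 is low in both panels.

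The genes whose pattern over the 8 libraries was most like that of Aldh1a3, by Pearson's r of log2 CPM among 12136 other tested genes, were Rint1 (0.976), Smarca1 (0.971), Fkbp1b (0.966), E2f6 (0.962) and Mlec (0.956). These are descriptions over libraries that share their conditions, and 60 genes had an r over 0.9. The group means of the 5 had the same order of conditions as those of Aldh1a3, which a choice by r favors. In Smarca1 they were 7.95 CPM with vehicle, 10.5 with CCM, 13.7 with LA and 15.9 with TCM. For the tested genes followed here other than Aldh1a3, r was 0.56 for Dhrs3, 0.46 for Aldh1a1, −0.38 for Cyp26b1 and −0.78 for Rdh10. The 5 genes named were chosen as the highest, so no other gene could exceed them.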

How the data were processed

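Poly(A) RNA of 8 FRC libraries, 2 each for vehicle, CCM, LA and TCM, had been prepared by the authors with a directional kit, aligned to GRCm38 with STAR 2.7.0a and counted per gene with featureCounts (Subread 2.0.1, names and versions from the submitters' processing notes). The deposited values are raw counts per gene without normalization; a second table, named as normalized, held the same raw counts for 12137 genes and differed in 0 values. Whether counting used the strand is not given in the sources used here. The authors ran DESeq2 1.32.0 for their own tests. Groups were taken from the sample titles, and 0 sample columns were left unused.

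A minimum of 10 counts in no fewer than 3 libraries left 12137 of 55367 genes, which were fitted in R 4.3.3 with edgeR 4.0.16 (TMM factors 0.938 to 1.04, estimateDisp, robust glmQLFit, 2-sided glmQLFTest), all 8 libraries entering 1 model of group means. Adjustment was by Benjamini-Hochberg over all tested genes, and calls needed an adjusted P under 0.05 together with a log2 FC beyond 0.39. The SE is the log2 FC divided by the square root of F. The 9 genes, the 7 pathway lists and the marker lists were chosen with earlier results of these data known. All 9 genes were named, together with each listed gene called for TCM over CCM or LA over vehicle and the 5 genes most like Aldh1a3; Stra6, Lrat, Fabp5, Rarg, Rxra, Cyp26a1, Cyp26c1, Por and Aldh2 were named after their values were seen. Positions and exon lengths come from GENCODE M21 (GRCm38), which is not the annotation of the counting, and promoter windows from RefSeq (GRCm38.p6). With 2 libraries a group an exact permutation test cannot give a P value below 0.33, so single values were not tested in that way. Alternatives were DESeq2 1.42.0, its size factors, no TMM factors, other filters and fold thresholds, only the libraries compared, a replicate block and each library left out. The other fold thresholds were not applied to the listed genes outside the 9.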

Additional observations from a re-analysis of the deposited data

Results flagged for a closer look

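The effect of TCM over CCM differed from the effect of LA over vehicle for 6 tested genes of the lists, by an interaction test in edgeR with adjustment over all 12137 genes. The difference on the log2 scale was 1.20 for Aldh1a1 (adjusted P = 0.00154), 1.84 for Dhrs3 (0.0189), 1.37 for Aldh1a7 (0.000860), 0.55 for Aldh2 (0.0232), 0.67 for Aldh6a1 (0.0222) and 2.63 for Tgm2 (0.000273), in each case with the larger value for TCM. That is 8.96% of the 67 listed genes tested, beside 10.4% of all genes. The 2 effects have different controls, so each difference also holds that between CCM and vehicle. The log2 FC of CCM over vehicle was −0.57 for Aldh1a1, −0.87 for Dhrs3, −0.59 for Aldh1a7 and −0.80 for Tgm2. It was −0.17 for Aldh6a1 and −0.03 for Aldh2, and none of these values was called. Aldh1a1, Aldh1a7 and Tgm2 kept this call under every alternative run for them, and Dhrs3, Aldh2 and Aldh6a1 each lost it under 6. For Aldh2, the mitochondrial aldehyde dehydrogenase, neither effect was called by itself, with a log2 FC of 0.30 for TCM over CCM (adjusted P = 0.0405) and −0.24 for LA over vehicle (adjusted P = 0.254).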

How the results depend on the processing

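Of the 4 tested genes other than Aldh1a3, 2 were called for TCM over CCM and 1 to 2 when a library was left out. For LA over vehicle 0 were called, and 0 to 1 with a library left out. For TCM over vehicle 3 were called, 1 at a log2 FC beyond 1, and 0 to 3 with a library left out. For the difference between the effects of TCM and LA 2 were called, 1 without a filter on low counts, and 1 to 2 with a library left out. For CCM over vehicle 0 were called, 1 with DESeq2, 1 without a filter, 2 with only the libraries compared, and 0 to 1 with a library left out. For LA over CCM 0 were called, 1 with DESeq2, 1 without a filter, 1 with only the libraries compared, and 0 to 1 with a library left out. The cause of these changes was not tested, other than that fewer samples or other gene sets entered the fits. The log2 difference of Aldh1a3 between the effects of TCM and LA, −0.40, ranged from −0.75 to 0.16 with a library left out, the last value without LA replicate 2, and its log2 FC for LA over vehicle ranged from 1.14 to 2.05 with a library left out. A lone library was taken to vary like the other groups.

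With the replicate number as a block, 1 gene was called for CCM over vehicle and 2 for LA over CCM, and the block changed no other call of the 9 genes. Same-numbered libraries did not deviate together in all pairs of groups (r from −0.242 for CCM with TCM to 0.353 for vehicle with LA), so the numbers were not taken as pairs. With the CCM numbers crossed, a choice made after seeing the data, 1 and 2 were called.

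The number of all genes called ranged over the alternatives from 760 to 2864 for TCM over CCM (2314 as reported), 57 to 656 for LA over vehicle (310), 0 to 679 for CCM over vehicle (158), 1 to 410 for LA over CCM (76), 668 to 2904 for TCM over vehicle (2121) and 629 to 2540 for the difference of effects (1268). Depth limits the 4 untested genes, of which Aldh1a2, Crabp1 and Crabp2 had at most 4 counts in a library and Rarb at most 12.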
